A study of Homo sapiens and Mus musculus with 4 samples.

Results

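ATF4 and 7 related genes of the stress response were looked up in ATF4 binding data from leukaemia cells and mouse bone marrow. All 8 encode transcription factors of the basic leucine zipper (bZIP) type: ATF4, ATF3, ATF5, DDIT3, JDP2, BATF3, NFE2L1 and NFE2L2. A peak was counted for a gene where it overlapped the gene span plus 10 kb on each side. All 8 genes could be placed on the human genome, and 3 (Atf4, Atf3 and Ddit3) on the mouse genome, by approximate positions that were set when the genes were chosen and were not checked against a mouse annotation here. The other 5 mouse genes were not analysed here. Of the 873 peaks listed for the leukaemia cells 1 was counted, and of the 83088 mouse peaks 6.

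Binding was measured by chromatin immunoprecipitation and sequencing (ChIP-seq), which recovers the DNA that a protein sits on. Chromatin came from KG1a, a human acute myeloid leukaemia line grown with fetal bovine serum, and from C57BL/6 mouse bone marrow cells. For each source, an antibody to ATF4 gave 1 ChIP library, and chromatin without antibody gave 1 input library, so there are 4 groups of 1 library. No treatment or genetic change is named for any group, and the age and number of the mice are not given in the sources used here. No replicate was analysed, the lists hold positions without heights, and read depth is unknown, so the values below have no error and no test. The labelled cell types could not be checked against markers, as the lists hold no expression values.

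A bZIP protein binds DNA as a dimer, gripping it with a basic region while its leucine zipper holds the partner. ATF4 is made when the initiation factor eIF2 is phosphorylated and general translation slows, and with C/EBP partners it binds a composite sequence known as the C/EBP-ATF response element. ATF3, ATF5 and DDIT3 (also called CHOP) are known as further factors of the same stress response, and the genes of some of them are described ATF4 targets. NFE2L1 and NFE2L2 (NRF1 and NRF2) act with small MAF proteins on genes of the proteasome and of antioxidant defence.

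ATF3 was the 1 member with a listed ATF4 peak in KG1a. ATF3 is a stress-induced factor that often acts as a repressor. Its peak ran from 212608462 to 212608889 on chromosome 1 (GRCh38, as are all human positions here), inside the gene, which spans 212565407 to 212620777 (gene identifier 467). The peak was 428 bp wide, and 9.97% of the listed peaks were wider, the median being 341 bp. It stood in place 22 of the 873 peaks in deposited order. The file does not say what that order means. Its centre lay 43.3 kb from the low-coordinate end and 12.1 kb from the high-coordinate end of a gene of 55.4 kb. No other gene of any kind in the RefSeq table overlapped it.

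The RefSeq promoter table lists starts for ATF3 at 212565407 and 212615018, both on the plus strand. The centre of the peak was 43.3 kb downstream of the first and 6.34 kb upstream of the second, so it covered neither. Other starts of ATF3 were not used here, so the peak may still cover a start that is missing from that table. Whether the peak sits at another promoter, in an exon or in an intron was not analysed here.

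The count of 1 in 8 stands against a low background. Over all 20037 protein-coding genes, 632 (3.15%) had a KG1a peak overlapping the span plus 10 kb, and 453 (2.26%) had one overlapping the span itself. Longer genes offer more room: of the 2699 genes with a span of 40 to 70 kb, which includes ATF3, 80 (2.96%) had a peak inside. With 1 library per group, no test of 1 in 8 against these shares was made.

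**Figure D1:**
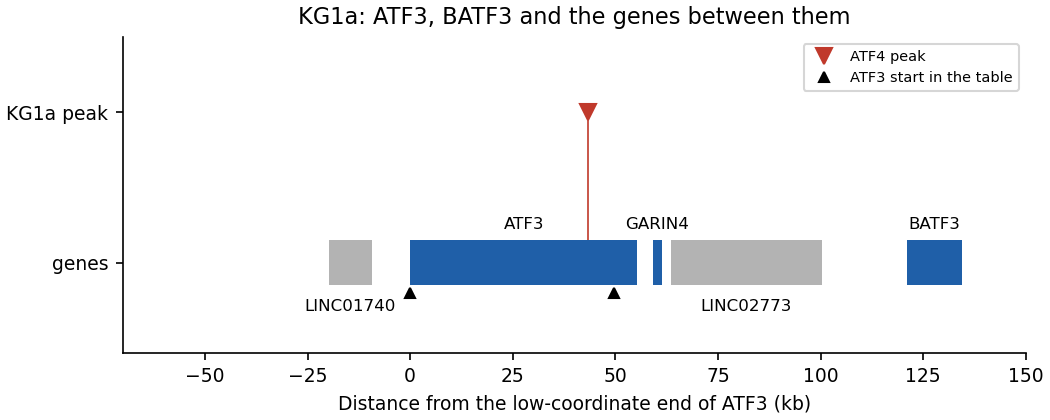
Map of the ATF3 and BATF3 neighbourhood. The horizontal axis is the distance in kb from the low-coordinate end of ATF3, blue bars are protein-coding genes, grey bars are long non-coding RNA genes, black triangles are the ATF3 starts in the RefSeq table, and the red mark is the KG1a peak. The peak stands 43.3 kb into ATF3, before the second of the starts drawn, and GARIN4 and LINC02773 lie between ATF3 and BATF3. Other starts of ATF3 are not drawn.

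Promoter sequences of ATF4, ATF3 and DDIT3 are printed below beside one that lay under a listed KG1a peak. No listed peak overlapped the printed sequences of these members. The ATF3 peak lay elsewhere in its gene, and it may cover a promoter at a start not used here. The ATF3 run below therefore does not show whether ATF4 was at an ATF3 promoter. As read depth is unknown, a missing listing does not show that no DNA was recovered there. Each run below is the 250 bases before a transcription start, 5′ to 3′ on the gene's own strand, from RefSeq (GRCh38.p14). For the members the outermost start is shown. CHAC1, an enzyme that degrades glutathione, is a well-known ATF4 target whose 250 bases lay entirely under a KG1a peak, and it is shown for comparison. Capitals mark matches to TGATGNAA, the core of the C/EBP-ATF response element, and in the member sequences also matches to the CRE (TGACGTCA), the AP-1 site (TGANTCA) and the core of the antioxidant response element (TGACNNNGC). Both strands were searched, and TTGCATCA is TGATGCAA read from the other strand.
CHAC1, chr15:40953221-40953470, plus strand: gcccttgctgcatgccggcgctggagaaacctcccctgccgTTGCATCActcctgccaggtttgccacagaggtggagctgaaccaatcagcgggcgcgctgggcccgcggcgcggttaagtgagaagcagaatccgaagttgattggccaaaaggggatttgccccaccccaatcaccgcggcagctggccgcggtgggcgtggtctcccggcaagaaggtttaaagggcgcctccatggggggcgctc
ATF4, chr22:39520309-39520558, plus strand: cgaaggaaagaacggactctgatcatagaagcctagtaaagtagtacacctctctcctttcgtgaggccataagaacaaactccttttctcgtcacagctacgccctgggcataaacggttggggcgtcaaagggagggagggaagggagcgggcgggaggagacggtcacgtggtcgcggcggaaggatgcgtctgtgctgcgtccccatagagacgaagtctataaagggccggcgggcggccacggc
ATF3, chr1:212565157-212565406, plus strand: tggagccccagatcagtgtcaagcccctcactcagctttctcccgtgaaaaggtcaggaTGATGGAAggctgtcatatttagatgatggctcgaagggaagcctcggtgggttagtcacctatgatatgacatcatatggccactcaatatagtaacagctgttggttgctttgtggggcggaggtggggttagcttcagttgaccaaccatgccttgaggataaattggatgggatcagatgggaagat
DDIT3, chr12:57520518-57520767, minus strand: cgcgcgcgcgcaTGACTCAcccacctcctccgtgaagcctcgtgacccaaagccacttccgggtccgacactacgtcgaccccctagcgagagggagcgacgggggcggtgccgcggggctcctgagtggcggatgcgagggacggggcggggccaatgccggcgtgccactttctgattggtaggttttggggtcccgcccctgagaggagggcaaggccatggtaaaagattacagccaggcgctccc

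The member promoters were searched for the same 4 motifs. The table held 16 starts for 7 of the 8 members, each with a window from 250 bases before to 50 after the start, and none for BATF3. None of the 16 windows (0) overlapped a KG1a peak. Over all protein-coding genes only 57 of 22199 windows did, so a count of 0 in 16 is the usual outcome. TGATGNAA occurred in 1 ATF3 window, 191 bases before the first start, and in 1 JDP2 window, 16 bases before the start at 75428022 on chromosome 14. JDP2 encodes a repressor that pairs with Jun proteins, and its site with its neighbours reads cggggcTGATGCAAcccgtc on the gene's strand. The AP-1 site stood 238 bases before the outermost DDIT3 start and 188 bases before the first ATF5 start. The same DDIT3 site was also counted for the other DDIT3 start, at 57520514, 241 bases before it. Over the windows of all protein-coding genes, TGATGNAA was found in 2.69% and the AP-1 site in 6.15%. The 16 member windows were not tested against these shares. No window of ATF4, NFE2L1 or NFE2L2 held any of the 4 motifs, which says only that these letters are not in those windows.

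Across all protein-coding genes, TGATGNAA was found in 598 of 22199 promoter windows, or 2.69%. Among the 57 windows that overlapped a KG1a peak it was found in 7, or 12.3%. Those were windows of AARS1, CHAC1, GARS1, HERPUD1, S100PBP, SLC3A2 and TARS1. The AP-1 site was found in 6.15% of all windows and in 7.02% of those under a peak, the CRE in 2.26% and 1.75%, and the antioxidant response element core in 13.8% and 15.8%. These shares were not tested, and windows of neighbouring starts share bases.

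The 7 members without a KG1a peak in their window lay at very different distances from listed binding. The order, from near to far, was BATF3, NFE2L1, NFE2L2, ATF4, ATF5, JDP2 and DDIT3. The median over all protein-coding genes was 0.961 Mb, so 5 of these 7 lay nearer to a peak than the median gene and JDP2 and DDIT3 lay farther. That count depends on the peaks used, and BATF3 was near only to the ATF3 peak. In the wider 50% of the list the distances of ATF4, NFE2L1 and NFE2L2 were 965, 5720 and 4580 kb. The median for that part of the list is not given here.

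The ATF4 gene itself spans 39520559 to 39522686 on chromosome 22 (gene identifier 468). Its nearest peak lay 372 kb toward the high-coordinate side, at 39894677 to 39894995, inside GRAP2, which encodes an adaptor of T cell receptor signalling. That peak was 319 bp wide and stood in place 181. On the low-coordinate side the nearest peak was 3.28 Mb away. Of protein-coding genes, 74.1% lay farther from a peak than ATF4 did.

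DDIT3 encodes CHOP, a factor of prolonged endoplasmic reticulum stress that pairs with C/EBP proteins. It lay in one of the longest stretches of the list without a peak. The gene spans 57516588 to 57520517 on chromosome 12, and the flanking peaks were 7.49 Mb away on the low side and 7.09 Mb away on the high side. This gap of 14.6 Mb ranked 18 among 846 gaps between neighbouring peaks, whose median was 2.10 Mb, and gaps at least that long made up 15.6% of all bases between peaks. Only 5.85% of protein-coding genes lay farther from a peak. Within 5 Mb of DDIT3 there was no peak (0).

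ATF5, a factor tied to mitochondrial stress, spans 49928906 to 49933935 on chromosome 19. Its nearest peak lay 374 kb toward the low side, at 49554282 to 49554654, and 0.814 kb from NOSIP. Distances for ATF5 and ATF4 were thus nearly equal, although their nearest peaks stood in places 575 and 181 of the list.

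BATF3 and JDP2 belong to the AP-1 side of the family. BATF3, a factor that conventional type 1 dendritic cells need, starts 65.6 kb beyond the end of ATF3 and spans 212686417 to 212699840. Its nearest listed peak was the ATF3 peak, 77.5 kb away, and the next peak on its other side lay 10.7 Mb away. BATF3 therefore had no peak of its own, and its distance is that to its neighbour's peak. JDP2 spans 75426943 to 75474107 on chromosome 14, and its nearest peak, inside ZFYVE1, lay 2.40 Mb away. Within 1 Mb of JDP2 no peak (0) was listed. Of all 22199 promoter windows only 57 lay under a KG1a peak, and of the 598 with TGATGNAA 7 did. With so few windows under peaks, most matches of any motif lack one, so the missing peak at JDP2 says little about its site.

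NFE2L1, which restores proteasome genes when the proteasome is inhibited, spans 48048359 to 48061545 on chromosome 17. Its nearest peak, 193 kb toward the high side, lay inside SKAP1 at 48255024 to 48255340. NFE2L2, the main regulator of antioxidant genes, spans 177230303 to 177264727 on chromosome 2, and its nearest peak lay 265 kb toward the low side at 176964946 to 176965256. That peak was 311 bp wide, just above the shortest listed width of 310 bp, and stood in place 871 of 873. The protein-coding gene nearest to it was HNRNPA3, 248 kb away. Both peaks are among the narrow ones, and in the wider 50% of the list the nearest peak to NFE2L1 was 5720 kb away and to NFE2L2 4580 kb away.

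**Figure D2:**
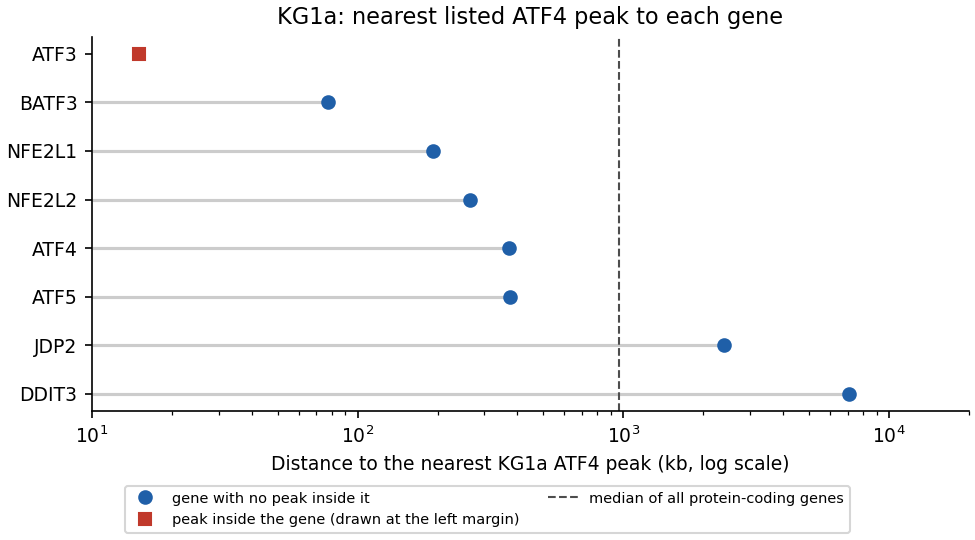
Distance from each gene to the nearest KG1a ATF4 peak, in kb on a log scale. ATF3 (red square) holds a peak and is drawn at the left margin, the other 7 genes (blue points) range from 77.5 kb for BATF3 to 7090 kb for DDIT3, and the dashed line is the median of all protein-coding genes.

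Peaks were also sought at 87 further genes of the same pathways. Of 44 other bZIP genes, 2 (4.55%) had a KG1a peak within 10 kb, against 3.15% of all protein-coding genes, and their median distance was 0.887 Mb. NRL, a photoreceptor factor of the MAF group, had peaks inside the gene at 24093741 to 24094241 (place 18) and 24105227 to 24105552 (place 507) on chromosome 14. Whether other genes also overlap these peaks was not analysed here, so they cannot be credited to NRL alone. DBP, a clock-controlled factor, had a peak 8.96 kb outside its span on chromosome 19 (place 132). Whether another gene lies nearer to that peak was not analysed here.

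Of 43 regulators, partners and targets of the members, 6 (14%) had a peak within 10 kb, and each of the 6 peaks overlapped the gene span. The median distance in this list was 0.246 Mb, against 0.319 Mb for the 8 members. This list was drawn up with earlier results of these data known, so its share is no independent evidence. All 6 are described as ATF4 targets: CHAC1 (place 7), the alanyl-tRNA synthetase gene AARS1 (place 13), the mitochondrial folate enzyme gene MTHFD2 (place 16), the endoplasmic reticulum protein gene HERPUD1 (place 27), and the transporter genes SLC3A2 (place 35) and SLC7A11 (place 278). With ATF3 in place 22, these 7 genes had peak widths from 316 to 753 bp.

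In mouse bone marrow the Atf4 gene had no peak within 10 kb of its stated position either. The window, 80245000 to 80265000 on chromosome 15 (GRCm38, as are all mouse positions here), held 0 peaks. The nearest lay 35.0 kb to the low side, at 80219047 to 80220032, and 40.9 kb to the high side, at 80295885 to 80296314. They were 986 and 430 bp wide. The stretch without a peak between them was 75.9 kb.

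An empty window of 20 kb was usual in the mouse list. When the chromosomes were tiled with 20 kb windows, 33.8% of 132579 windows held at least 1 peak and 66.2% held none. Of gaps between peaks, 11.9% were at least as long as the one around Atf4, but such gaps made up 57.9% of all bases between peaks. The wider surroundings held more peaks than most tiled windows: 62 lay within 500 kb of Atf4, where the median 1000 kb window held 29. At least as many were held by 5.61% of windows. Ddit3 also had 62 within 500 kb, and windows around other mouse genes were not compared. Within 100 kb of Atf4 there were 7, against a median of 5.

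At Ddit3 the mouse list had peaks beside the gene position and none on it. The window from 127280000 to 127300000 on chromosome 10 held 1 peak, at 127279980 to 127280459, which began just outside the window and ended 9.54 kb from the stated position. At least 1 peak was found in 33.8% of all 20 kb windows. The counted peak was the innermost of a row of 3 short peaks. The others ran from 127277927 to 127278684 and from 127279090 to 127279519, and the 3 were separated by 405 and 460 bases. On the high side the first peak, 325 bp wide, lay 14.2 kb away at 127304215 to 127304539. The stated position is rounded to 10 kb, which is as much as the distance of the counted peak, so whether that peak belongs to the window depends on the rounding.

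Within 100 kb Ddit3 had 22 peaks, against 7 for Atf4 over the same length. The median 200 kb window held 5 peaks and 1.02% of windows held at least 22. The widest of the 22, at 127227595 to 127231198, was 3604 bp and lay 58.8 kb to the low side. Which genes these peaks lie near was not analysed here.

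**Figure D3:**
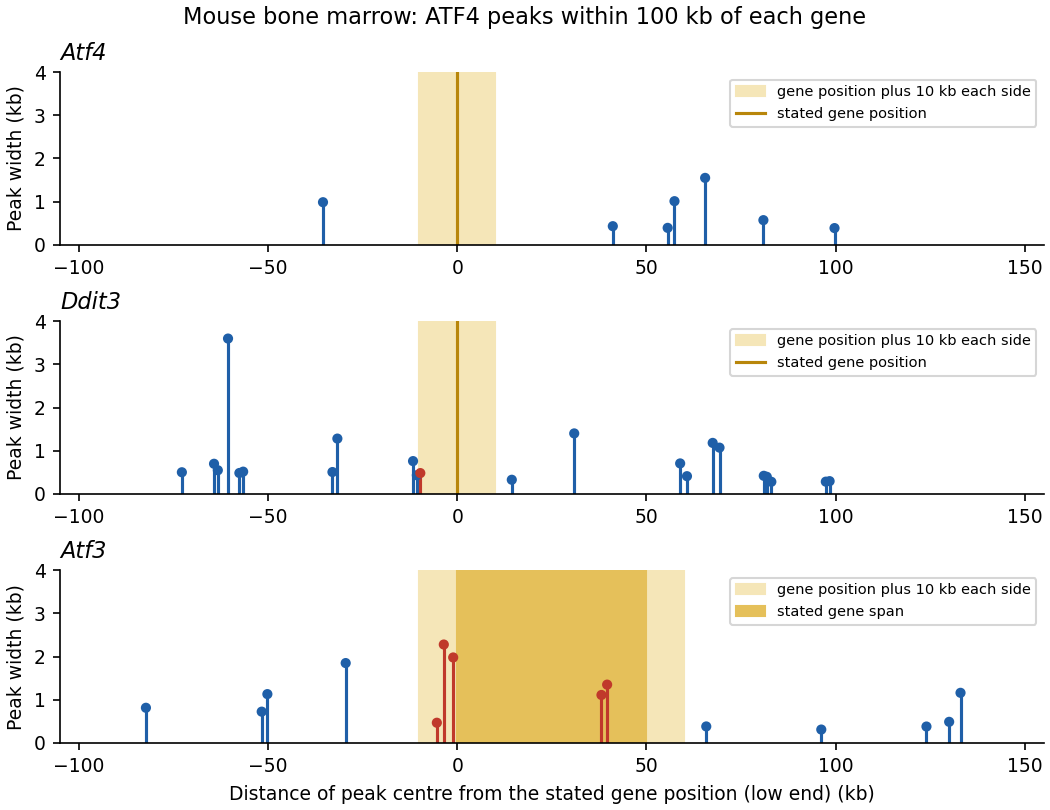
Mouse bone marrow peaks around Atf4, Ddit3 and Atf3. Each stem is a peak within 100 kb, placed by the distance of its centre from the stated gene position in kb, and its height is the peak width in kb, not binding strength. Red stems overlap the shaded window, of which Atf4 has 0, Ddit3 1 and Atf3 5.

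Atf3 had mouse peaks inside the gene position and at its edge. Its stated position is a span of 50 kb on chromosome 1, so the window, 191160000 to 191230000, is 70 kb long and its count is not comparable with those of Atf4 and Ddit3. It held 5 peaks in 2 groups. Windows of 70 kb held at least 1 peak in 69.8% of 37872 cases and at least 5 in 15.9%, with a median of 2.

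The first group lay at the low-coordinate edge. Its 3 peaks ran from 191164357 to 191164822, from 191165293 to 191167575 and from 191167923 to 191169898. They were 466, 2283 and 1976 bp wide with only 470 and 347 bases between them, and the last ended 102 bases before the stated span. The middle one was wider than most of the list, as 7.60% of mouse peaks were wider.

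The second group lay inside the stated span. Its 2 peaks ran from 191207519 to 191208627 and from 191208910 to 191210256, were 1109 and 1347 bp wide, and were separated by 282 bases. Their centres stood 38.1 and 39.6 kb from the low end of the span. Between both groups 37.6 kb held no peak. With peaks closer than 1 kb merged, the 5 peaks became 2.

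By bases, the Atf3 window had 7181 under peaks, or 10.3%. The median 70 kb window had 893, and 6.03% of windows had at least as many. Within 100 kb of the span lay 14 peaks, against a median of 7 in windows of 250 kb, of which 14.8% held at least as many.

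**Figure D4:**
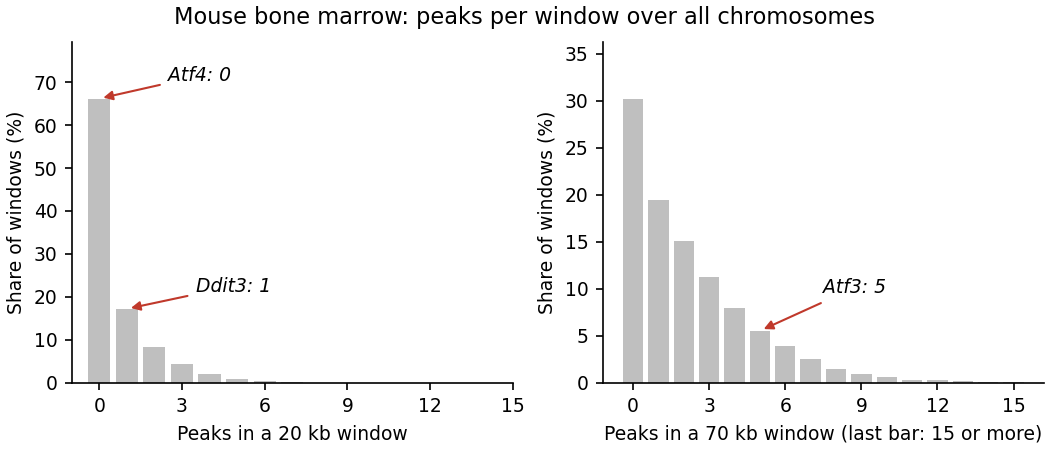
Share of mouse windows, in percent, by the number of peaks they hold, for windows of 20 kb (left) and 70 kb (right) tiled over the chromosomes. Arrows mark the windows of Atf4 with 0 peaks, Ddit3 with 1 and Atf3 with 5.

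Of the 3 genes placed in both sources, ATF3 had peaks inside its span in each, 1 in KG1a and 2 in mouse marrow. Beside these stand 2.96% of human genes of 40 to 70 kb with a peak inside and 69.8% of mouse windows of 70 kb with at least 1 peak. The mouse windows are longer than the stated span of 50 kb and were tiled without regard to genes. The human and mouse shares are therefore not comparable with each other. The mouse span is rounded to 10 kb and 3 more peaks end within that distance of its low edge, so the count of 2 depends on the rounding. ATF4 had 0 in its window in both. DDIT3 had 0 in KG1a and 1 at the rim of its window in mouse. Of all human protein-coding genes 3.15% had a KG1a peak in such a window. Of mouse windows of 20 kb, 33.8% held at least 1 peak and 66.2% held none, so these counts are common ones. No difference between the sources was tested. Whether the human and the mouse ATF3 peaks fall on matching sequence was not analysed here.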

How the data were processed

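The files analysed are the authors' deposited peak lists, 1 per cell source, each from 1 ChIP library against its input. They have 3 columns: chromosome, start and end in bases. The builds are GRCh38 and GRCm38, and the tools named are Bowtie2, MACS2, deepTools and CASAVA 1.4, per the submitters' processing notes. The settings and the peak threshold are not given in the sources used here, and a list reflects read depth as well as binding. Starts were read as counted from 0 and are printed counted from 1. Peaks on scaffolds entered no count near genes.

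Human genes and promoters came from RefSeq tables of GRCh38.p14, and all 8 members and 87 pathway genes matched by symbol. An overlap of 1 base counted. Mouse windows used the stated positions of 3 genes, rounded to 1 kb for Atf4 and to 10 kb for Ddit3 and Atf3. Background shares used all 20037 protein-coding genes, or mouse windows tiled from the first to the last peak of each chromosome. The text names all 8 members, and pathway genes with a KG1a peak within 10 kb. Genes nearest to a member's nearest peak are also named. The genes of promoter windows with TGATGNAA under a peak were named after their values were seen. The members and lists were chosen with earlier results of these data known. Code ran in Python 3.11.15 with pandas 2.3.3 and was tested on simulated peaks. The alternatives were other window sizes, peak centres in place of overlap, merged peaks and the wider 50% of each list.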

Additional observations from a re-analysis of the deposited data

How the results depend on the processing

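ATF3 alone had a KG1a peak with windows of 1, 5 or 50 kb, by peak centre and in the wider 50% of the list. With 100 kb the count was 2, as BATF3 then reached the ATF3 peak. In the wider 50% of the list the nearest peak to ATF4 was 965 kb away. The Atf4 window stayed at 0 peaks with 5 and 20 kb, by centre, merged, and in the wider 50%. With 50 kb it held 2 peaks and 1416 bases. Atf3 kept 4 to 6 peaks with 5 and 20 kb, had 9 with 50 kb, and had 2 after merging. Ddit3 depended on the window: 0 peaks and 0 bases with 5 kb, 4 peaks and 1993 bases with 20 kb, and 7 peaks and 5173 bases with 50 kb. In the wider 50% of the list Ddit3 had 0 peaks and 0 bases. No paired analysis was possible because each group has 1 library. Unknown depth limits every statement that no peak is listed.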
